A study of Mus musculus with 15 samples.

Results

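The genes described here are 10 surface molecules that antigen-presenting cells use to stimulate or restrain T cells, or through which T cells and soluble ligands act on B cells. They are Cd80, Cd86, Icosl, Cd274, Cd83, Cd48, Cd70, Cd40, Tnfrsf13c and Tnfrsf13b, chosen by name together with every probe that the platform's probe table assigns to them. This gave 19 of the 45263 probes on the array and 10 of its 19057 named genes. A T cell that recognises a peptide on class II molecules needs an additional signal from the presenting cell, and the B7 family ligands CD80 and CD86 give it through CD28, while CTLA4 competes for the same ligands and restrains the T cell. CD40 works in the other direction: CD40 ligand on the T cell binds it and, through TRAF adaptors and NF-kB, is known to raise CD80 and CD86 on the B cell. Tnfrsf13c encodes the BAFF receptor and Tnfrsf13b encodes TACI, which are receptors of B cells for the survival factors BAFF and APRIL and not ligands of T cells.

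Each of 15 mouse RNA samples had its own Illumina bead array, and the samples form 5 groups of 3. The 12 pro-B arrays hold RNA from bone marrow of mice aged 6 to 8 weeks on a mixed C57BL/6 and 129S5 background. These cells had been grown for 10 days with IL-7, Flt3L and SCF at 50 ng/ml each, conditions under which early B cell precursors, called pro-B cells, expand. The Bcl2-rescued Bcl11a-deficient group (titled Bcl2+OHT) and its Bcl2 control (wild type with Bcl2 overexpression, titled Bcl2-OHT) carry extra Bcl2, which protects cells from apoptosis. The Bcl11a-deficient group (titled EAAE+OHT) and the control (wild type, titled EAAE-OHT) do not. OHT is a common abbreviation of hydroxytamoxifen, a trigger of inducible Cre. The titles of both deficient groups carry +OHT and those of both controls carry -OHT. If the sign marks treatment, drug and deletion cannot be told apart. The fifth group is titled DN3, an early thymocyte stage, with the genotype Bcl11bCKO/CKO, the strain written as C57B7, the same age range and lymphocytes as the tissue. Its labels carry the pro-B culture text as well. For the promoters behind Cre and Bcl2 and for the deleted part of Bcl11a, the sources used here give nothing.

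Between 11473 and 16422 probes were above background on an array, with control replicate 3 the lowest, and that array also had a mean signal of 187 against 445 to 769 on the other pro-B arrays. The DN3 arrays lay on a slide of their own, so slide and cell type cannot be told apart in that comparison. Bcl11a itself, which encodes a zinc finger protein of early lymphocytes, was higher on the labelled deficient arrays without Bcl2. Its probe ILMN_2712044 averaged 10.14 ± 0.24 in the Bcl2-rescued Bcl11a-deficient group, 10.93 ± 0.09 in the Bcl2 control, 11.49 ± 0.15 in the Bcl11a-deficient group and 9.62 ± 0.35 in the control (normalised log2 intensity, SD, n = 3 each). The difference by label was -0.79 ± 0.20 with Bcl2 (adjusted p = 0.0172) and 1.87 ± 0.20 without it (adjusted p = 0.0072). With the replicate number as a block within each Bcl2 background the difference without Bcl2 did not pass (1.87 ± 0.20, adjusted p = 0.082), nor did it without Bcl11a-deficient replicate 2 (adjusted p = 0.0624) or 3 (adjusted p = 0.0668), and 6 of 29 alternatives removed that call. The call with Bcl2 was removed by 5 of 29, among them leaving out Bcl2-rescued replicate 1 (adjusted p = 0.0848), Bcl2 control replicate 2 (adjusted p = 0.0635) or Bcl2 control replicate 3 (adjusted p = 0.051). Both groups are therefore called labelled deficient, each direction is relative to that label, and whether the probe lies in the deleted part is unknown. The surrogate light chain genes Igll1 and Vpreb1 were above background on the pro-B arrays, but Pax5, a defining factor of the B lineage, was not on any array of the Bcl2 control and the Bcl11a-deficient group. In turn, all 10 T cell markers kept over the 15 arrays were higher on the DN3 arrays than on the control arrays, where 20.4% of all genes were higher. Over the pro-B arrays 4 were kept, so the rest met the filter only with the DN3 arrays, and the count supports nothing by itself. Bcl11b was among the 10, with a mean of 13.54 in DN3 cells, although their genotype label names that gene. Cd4, Cd8a and Cd5 were not above background in DN3 cells.

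A probe counted as above background when its detection p was under 0.05, and it was kept for testing when that held on at least 3 arrays. Of the 10 genes, 8 had a kept probe and 14 of the 19 probes were kept. Cd48, the ligand of CD244, and Cd70, the ligand of CD27, each had 1 probe, and neither was above background on any of the 15 arrays. For both only an upper bound at the background level was measured. That bound holds only if the probe reads the transcript, which was not tested. The single Cd48 probe (ILMN_2633530) averaged between 4.80 and 5.08 in the 4 pro-B groups on the normalised log2 scale, and the Cd70 probe (ILMN_2996338) between 4.92 and 5.16. Icosl probe ILMN_1235456 and Cd40 probe ILMN_2488266 also stayed at background on every array, and Cd80 probe ILMN_2770381 passed on 1 array, Bcl2-rescued replicate 2, with a detection p of 0.0363. Cd80 was kept only because it was bright in 1 group, so the counts over the kept genes given below describe them and support nothing by themselves.

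Promoter sequences of 300 bases, from 250 before to 50 after the annotated start, were taken from RefSeq (GRCm38.p6), where 6 of the 10 genes had an entry. The 3 shown belong to genes with different patterns in the values that follow: Cd80, measured above background in 1 group alone, Cd274, bright everywhere, and Tnfrsf13c, lower on the arrays with Bcl2. They lie at chr16:38458683-38458982 on the plus strand, chr19:29367188-29367487 on the plus strand and chr15:82224331-82224630 on the minus strand. Capitals mark matches, on either strand, to an NF-kB motif (GGG and CC with 5 unspecified bases between them), an AP-1 motif (TGANTCA) or an interferon-stimulated response element (GAAA repeated after 2 unspecified bases).
Cd80: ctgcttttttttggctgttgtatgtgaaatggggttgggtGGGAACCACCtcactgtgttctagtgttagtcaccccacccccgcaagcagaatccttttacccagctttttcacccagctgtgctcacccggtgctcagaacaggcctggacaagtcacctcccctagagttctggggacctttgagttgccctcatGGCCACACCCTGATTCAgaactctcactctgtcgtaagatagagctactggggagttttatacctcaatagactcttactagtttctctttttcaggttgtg
Cd274: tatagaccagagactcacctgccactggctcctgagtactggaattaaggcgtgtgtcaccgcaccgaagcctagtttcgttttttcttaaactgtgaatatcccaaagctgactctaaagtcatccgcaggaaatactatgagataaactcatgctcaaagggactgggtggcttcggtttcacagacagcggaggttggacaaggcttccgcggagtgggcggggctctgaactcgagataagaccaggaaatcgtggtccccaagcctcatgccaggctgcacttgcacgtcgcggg
Tnfrsf13c: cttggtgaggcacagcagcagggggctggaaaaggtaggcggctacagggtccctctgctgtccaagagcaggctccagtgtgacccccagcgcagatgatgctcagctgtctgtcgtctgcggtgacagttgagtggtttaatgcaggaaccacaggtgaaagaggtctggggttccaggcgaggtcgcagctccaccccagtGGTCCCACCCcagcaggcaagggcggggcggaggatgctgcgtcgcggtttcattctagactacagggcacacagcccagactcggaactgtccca
The Cd80 sequence held 2 NF-kB matches, which begin 210 and 52 bases before the start, and 1 AP-1 match that begins 42 bases before it. Tnfrsf13c held 1 NF-kB match, 46 bases before the start, and Cd274 held no match to any of the 3 motifs. Among all 32851 promoters of that length 50.8% held the NF-kB motif, 7.81% the AP-1 motif and 3.44% the response element, so an NF-kB match is common among promoters. Icosl held 2 NF-kB matches, Tnfrsf13b 3, of which 2 overlap, and Cd48 none. Cd86, Cd83, Cd40 and Cd70 were not analysed here for promoters.

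With Bcl2 present, the labelled deficient cells had more RNA of Cd80, Cd86, Cd83, Cd274 and Cd40 than the Bcl2 control. These are both B7 ligands of CD28, the activation marker CD83, the inhibitory ligand PD-L1 and the receptor for CD40 ligand. Of the 8 genes with a kept probe, 5 were higher and 0 lower, where 11.7% of all 9687 named genes were higher and 11.3% lower (limma, Benjamini-Hochberg adjusted p under 0.05 over all 17719 kept probes). The median log2 fold change over the 8 genes was 1.77, against 0.0366 over all genes. Icosl, Tnfrsf13c and Tnfrsf13b did not pass by their brightest probe. In bulk RNA, more cells that carry a transcript and more transcript per cell cannot be told apart.

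**Figure D1:**
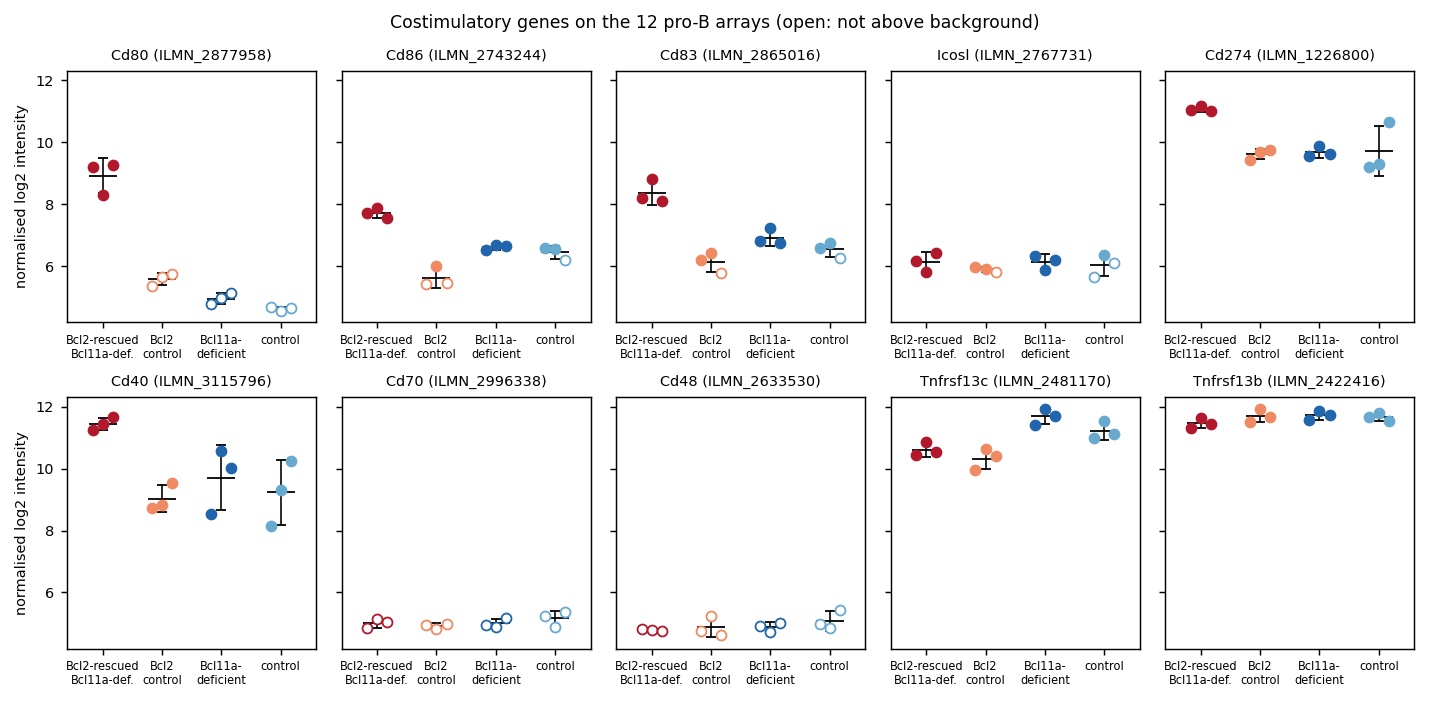
Normalised log2 intensity of the brightest probe of each gene on the 12 pro-B arrays, with the Bcl2-rescued Bcl11a-deficient group leftmost in each panel and the control rightmost; each point is 1 array, lines are the mean and SD of 3 arrays, and open points were not above background. Cd80 is filled only in the Bcl2-rescued Bcl11a-deficient group, at 8.29 to 9.28, and Cd70 and Cd48 are open throughout.

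CD80 is the B7 ligand that appears late on activated B cells and binds CTLA4 more tightly than CD28. Its kept probe (ILMN_2877958) read 9.20, 8.29 and 9.28 in the Bcl2-rescued Bcl11a-deficient group, against 5.37, 5.65 and 5.75 in the Bcl2 control. It read 4.76, 4.96 and 5.12 in the Bcl11a-deficient group and 4.67, 4.56 and 4.66 in the control. Only the 3 Bcl2-rescued arrays were above background, each with a detection p of 0, and the scanner intensities there were 689.4, 343.3 and 560.5. Over the other groups the detection p lay between 0.0759 and 0.213 in the Bcl2 control, 0.407 and 0.884 in the Bcl11a-deficient group and 0.936 and 0.989 in the control. The difference between the label groups with Bcl2 is therefore a bound, at least 8.72-fold higher in the labelled deficient cells (limma adjusted p = 3.45e-06). Those cells also exceeded the labelled deficient cells without Bcl2 at least 8.77-fold (adjusted p = 4.1e-07). No fold is given among the other 3 groups, since none of them was above background. The fit passes Cd80 as higher in the Bcl2 control than in the control (adjusted p = 0.0401), but both sides of that difference are at background, and 17 of the 24 alternatives that kept the probe removed the call.

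CD86 is the B7 ligand that most antigen-presenting cells carry first and at a higher level. Its brightest probe (ILMN_2743244) read 7.71, 7.88 and 7.57 in the Bcl2-rescued Bcl11a-deficient group, against 5.41, 6.01 and 5.45 in the Bcl2 control. Without Bcl2 it read 6.52, 6.69 and 6.63 in the Bcl11a-deficient group and 6.59, 6.56 and 6.20 in the control. The Bcl2-rescued arrays stood above all others and the Bcl2 control arrays below all others, and within the pair without Bcl2 the arrays overlapped. The log2 difference by label was 2.09 ± 0.20 with Bcl2 (SE, adjusted p = 2.4e-05) and 0.17 ± 0.20 without it (95% interval -0.27 to 0.60, adjusted p = 0.828). Bcl2 went with a lower Cd86 level between the controls, by -0.82 ± 0.20 (adjusted p = 0.0298), and with a higher one between the labelled deficient groups, by 1.10 ± 0.20 (adjusted p = 0.00122). Of 28 alternatives, 11 removed the call between the controls.

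The other Cd86 probes were dimmer. ILMN_1217041 was above background on all labelled deficient and control arrays but on no Bcl2 control array, and was at least 2.72-fold higher by label with Bcl2 (adjusted p = 0.00187). ILMN_1216386 was above background on 2 Bcl2-rescued arrays, 1 control array and 1 DN3 array. It read 5.49, 6.11 and 5.93 in the Bcl2-rescued Bcl11a-deficient group and 5.43, 5.36 and 5.59 in the Bcl2 control, and did not pass (0.38 ± 0.24, adjusted p = 0.314). The 3 probes thus gave 2 calls, and the one without a call lay near the background.

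CD83 marks activated B cells and mature dendritic cells, and in mouse it is known to hold CD86 and class II molecules at the surface by opposing the ligase MARCH1. The single probe (ILMN_2865016) read 8.21, 8.81 and 8.09 in the Bcl2-rescued Bcl11a-deficient group, against 6.21, 6.41 and 5.78 in the Bcl2 control. It read 6.82, 7.22 and 6.73 in the Bcl11a-deficient group and 6.60, 6.76 and 6.27 in the control. Again the Bcl2-rescued arrays stood apart and the pair without Bcl2 overlapped. The label difference for Cd83 was 2.24 ± 0.25 with Bcl2 (adjusted p = 7.65e-05) and 0.38 ± 0.25 without it (95% interval -0.16 to 0.92, adjusted p = 0.803). Bcl2 went with a higher level in the labelled deficient cells (1.45 ± 0.25, adjusted p = 0.000876) and with no passing difference in control cells (-0.41 ± 0.25, adjusted p = 0.368).

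Cd274 encodes PD-L1, the ligand that restrains T cells through PD-1. Its probe (ILMN_1226800) was well above background everywhere and read 11.04, 11.18 and 11.01 in the Bcl2-rescued Bcl11a-deficient group, against 9.43, 9.69 and 9.75 in the Bcl2 control. It read 9.55, 9.89 and 9.61 in the Bcl11a-deficient group and 9.21, 9.29 and 10.66 in the control. The high control value is that of replicate 3, the dim array, whose unnormalised signal for this probe was the lowest of the control arrays, at 379 against 697 and 573. The label difference was 1.45 ± 0.32 with Bcl2 (adjusted p = 0.0075) and -0.04 ± 0.32 without it (95% interval -0.74 to 0.66, adjusted p = 0.975). Without control replicate 3 the difference without Bcl2 was 0.43 (adjusted p = 0.435). In the labelled deficient cells Cd274 was higher with Bcl2 than without it, by 1.39 ± 0.32 (adjusted p = 0.00566).

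Icosl, the ligand of ICOS, was close to background in every group. Its kept probe (ILMN_2767731) read 6.17, 5.81 and 6.44 in the Bcl2-rescued Bcl11a-deficient group and 5.99, 5.90 and 5.82 in the Bcl2 control. In the Bcl11a-deficient group it read 6.34, 5.89 and 6.21, and in the control 5.66, 6.35 and 6.09. All 4 groups overlapped, and the label difference with Bcl2 was 0.24 ± 0.22 (95% interval -0.25 to 0.73, adjusted p = 0.535).

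Among the receptors, Cd40 followed the ligands with more spread between arrays. Its brightest probe (ILMN_3115796) read 11.24, 11.44 and 11.65 in the Bcl2-rescued Bcl11a-deficient group, against 8.71, 8.83 and 9.52 in the Bcl2 control. It read 8.55, 10.56 and 10.03 in the Bcl11a-deficient group and 8.15, 9.30 and 10.26 in the control. The highest control value is again that of replicate 3, the dim array. Its unnormalised signal for this probe was the lowest of the control arrays, at 273.8 against 313.4 and 576. The Bcl2-rescued arrays were above all others, whereas the other 3 groups overlapped each other. The label difference was 2.42 ± 0.55 with Bcl2 (adjusted p = 0.00847) and 0.47 ± 0.55 without it (95% interval -0.72 to 1.67, adjusted p = 0.824). With Bcl2, 2 dimmer probes passed as well, ILMN_2502136 by 2.42 ± 0.46 (adjusted p = 0.00319) and ILMN_2503129 by 2.14 ± 0.38 (adjusted p = 0.00212). The dimmest kept probe, ILMN_2496288, differed by 0.50 ± 0.17 and did not pass (adjusted p = 0.054), although it did in 7 alternatives. Without Bcl2, ILMN_2502136 differed by 0.85 ± 0.46 and ILMN_2503129 by 0.77 ± 0.38, and neither passed (limma adjusted p = 0.803 for each). Cd40 was also higher in the labelled deficient cells with Bcl2 than in those without it, by 1.73 ± 0.55 (adjusted p = 0.0284), a call that 7 alternatives removed.

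The receptors for BAFF and APRIL did not follow CD40. Tnfrsf13c, by which BAFF keeps maturing B cells alive, read 10.44, 10.86 and 10.52 in the Bcl2-rescued Bcl11a-deficient group and 9.96, 10.62 and 10.39 in the Bcl2 control (ILMN_2481170). It read 11.41, 11.93 and 11.71 in the Bcl11a-deficient group and 10.99, 11.53 and 11.11 in the control. The arrays with Bcl2 lay below those without it, and the label groups overlapped in both backgrounds, with differences of 0.28 ± 0.23 with Bcl2 (adjusted p = 0.464) and 0.48 ± 0.23 without it (adjusted p = 0.803). In the labelled deficient cells Tnfrsf13c was lower with Bcl2 than without it (-1.08 ± 0.23, adjusted p = 0.00366). Between the Bcl2 control and the control the difference was -0.88 ± 0.23 (adjusted p = 0.0421), and 15 of 28 alternatives removed that call.

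Tnfrsf13b, whose product TACI binds both BAFF and APRIL, was bright and level on its stronger probe. ILMN_2422416 read 11.32, 11.64 and 11.44 in the Bcl2-rescued Bcl11a-deficient group, 11.51, 11.92 and 11.68 in the Bcl2 control, 11.56, 11.86 and 11.73 in the Bcl11a-deficient group and 11.67, 11.79 and 11.54 in the control. No pro-B comparison passed for this probe, and the label difference with Bcl2 was -0.24 ± 0.17 (adjusted p = 0.391). The dimmer probe ILMN_2480814 disagreed, with 7.33, 7.41 and 6.96 in the Bcl2-rescued Bcl11a-deficient group against 8.25, 8.20 and 8.33 in the Bcl2 control. It read 8.22, 8.52 and 8.42 in the Bcl11a-deficient group and 8.55, 8.47 and 6.96 in the control, where replicate 3 again stood apart, this time low. On this dimmer probe the label difference with Bcl2 was -1.03 ± 0.35 (adjusted p = 0.0583), which passed in 10 alternatives, and the difference between the labelled deficient groups was -1.15 ± 0.35 (adjusted p = 0.0229), lost in 6 alternatives. Which transcripts of Tnfrsf13b each probe reads was not analysed here.

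**Figure D2:**
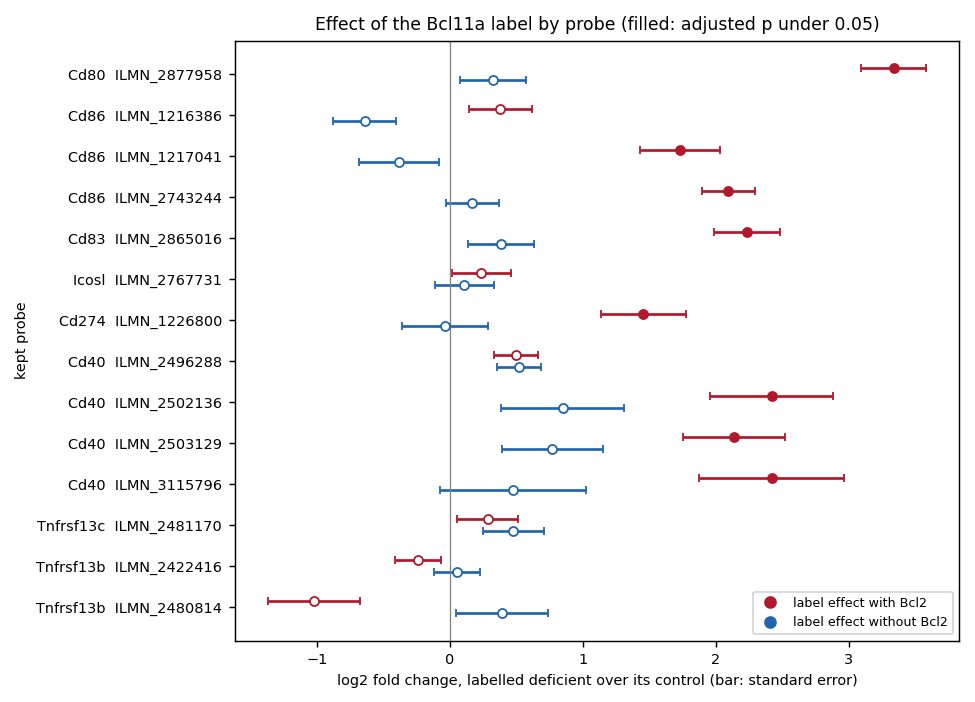
Log2 fold change by Bcl11a label for each of the 14 kept probes, with Bcl2 (red, upper mark) and without it (blue, lower mark); bars are standard errors and filled marks passed at an adjusted p under 0.05. The 8 filled marks belong to Cd80, Cd86, Cd83, Cd274 and Cd40 with Bcl2, and no mark without Bcl2 is filled; for Cd80 the mark without Bcl2 compares groups at background, and the mark with Bcl2 is a fitted value against a group at background.

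Without Bcl2 the label made no passing difference in any of the 14 kept probes. By brightest probe 0 of 8 genes passed, as against 0.031% of all genes, and the members' median was 0.244 against 0.00828 over all genes. Of the 8, 0 had an unadjusted p under 0.05, where 537 of all 9687 genes did, so this count decides nothing. Dimmer probes are not in these counts. All 4 kept Cd40 probes were higher, by 0.47 to 0.85. Among them ILMN_2496288 differed by 0.52 ± 0.17, with arrays that did not overlap and the control at background. Cd86 ILMN_1216386 differed by -0.64 ± 0.24, with the Bcl11a-deficient group at background. The test of the difference between the label effects with and without Bcl2, an interaction term, passed for 3 of 8 genes, all larger with Bcl2, where 3.7% of all genes were. These were Cd80 (3.02 ± 0.35, adjusted p = 0.000328), Cd86 (1.93 ± 0.28, adjusted p = 0.00154) and Cd83 (1.86 ± 0.35, adjusted p = 0.00753). For Cd80 this term rests on groups at background and its size was not measured. Cd274 (1.49 ± 0.45, adjusted p = 0.0691) and Cd40 (1.95 ± 0.77, adjusted p = 0.157) did not pass. Cd274 passed without control replicate 3 (1.02 ± 0.21, adjusted p = 0.00773), and Cd40 passed with the replicate number as a block within each Bcl2 background (1.95 ± 0.39, adjusted p = 0.0234). The Cd83 term was lost within slide 1 (1.66, adjusted p = 0.142), with median scaling and with the series matrix scores. The remaining genes had intervals that included 0: Icosl 0.13 ± 0.32, Tnfrsf13c -0.19 ± 0.33 and Tnfrsf13b -0.30 ± 0.24.

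Slides were compared as batches, since 6 pro-B arrays lay on slide 1 and 6 on slide 2. The label difference with Bcl2 was 2.30 on slide 1 and 1.99 on slide 2 for Cd86, and 2.00 and 2.36 for Cd83. It was 1.61 and 1.38 for Cd274 and 2.53 and 2.37 for Cd40. Cd80 passed on slide 2 (adjusted p = 0.000443), but it met the filter only through the bright Bcl2-rescued arrays, so this supports nothing by itself. No size is given for Cd80 because the Bcl2 control was at background on both slides. The other genes passed within each slide except Cd40 on slide 1 (adjusted p = 0.107), where 1 array per group was available. Leaving out any 1 array left at least 4 of the 5 genes called. The count of 4 came from leaving out each Bcl2-rescued array, when Cd80 no longer met the filter of 3 arrays and was not tested. The fits share 1 estimate of the spread over the pro-B arrays, which is also what gives a test where a slide holds 1 array per group.

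The effect of Bcl2 itself differed in direction between genes. In the labelled deficient cells Bcl2 went with higher levels of 5 genes, Cd80, Cd86, Cd83, Cd274 and Cd40, and a lower level of 1, Tnfrsf13c. Over all genes 20.3% were higher and 17.5% lower in that comparison, and the medians were 1.25 over the 8 genes and 0.0537 over all. Between the control groups 1 of 8 genes passed as higher, Cd80 at background, and 2 as lower, Cd86 and Tnfrsf13c, against 3.86% higher and 3.29% lower over all genes. This count was 0 when the Bcl2 control and the control were fitted alone, and 0 without Bcl2 control replicate 1, Bcl2 control replicate 3 or control replicate 2. The comparisons share arrays (the same Bcl2-rescued arrays enter the first and the label comparison with Bcl2), so they are not independent of each other.

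Markers of other cells that carry these genes were followed beside them. Dendritic cells are the classical source of CD80, CD86, CD83 and CD40. Of 12 conventional dendritic cell markers, 4 were kept over the pro-B arrays, and 1 of these, Zbtb46, was higher in the Bcl2-rescued Bcl11a-deficient group than in the Bcl2 control (at least 1.39-fold, adjusted p = 0.000764). Over all genes 11.7% were higher in that comparison. Zbtb46 was above background only in the Bcl2-rescued Bcl11a-deficient group and met the filter only through those arrays. Its call and this count therefore support nothing by themselves. Itgax, Batf3, Clec9a, Cd209a and Ly75 were not above background in any pro-B group. The summed normalised linear level over 5 markers was 11740 to 13400 in the Bcl2-rescued Bcl11a-deficient group, 7069 to 8816 in the Bcl2 control, 9209 to 10770 in the Bcl11a-deficient group and 3406 to 7547 in the control. The part of such cells in the rise of Cd80, Cd86, Cd83 and Cd40 was not tested.

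The sum over 10 monocyte, macrophage and neutrophil markers was 725 to 1268 in the Bcl2-rescued Bcl11a-deficient group and 416 to 536 in the Bcl2 control. Without Bcl2 it was 8324 to 14330 in the Bcl11a-deficient group and 8344 to 15450 in the control. Of the 9 kept over the pro-B arrays, 2 (Lyz1 and Lyz2) were higher by label with Bcl2, where 11.7% of all genes were higher. In the Bcl2 control 7 of the 9 were lower than in the control, against 3.29% of all genes. Cd86 and Tnfrsf13c were lower in that comparison too. In the labelled deficient cells 6 of the 9 were lower with Bcl2 than without it (median -1.12), against 17.5% of all genes, and Tnfrsf13c was lower there too. The part of these cells in the lower Cd86 and Tnfrsf13c values was not tested.

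Cells of the B lineage itself were also followed. Of 10 kept early B cell markers 4 were higher by label with Bcl2, Dntt by 1.85 ± 0.28 and Rag1 by 1.93 ± 0.37, with Il7r and Cd79b, and none was lower. Over all genes 11.7% were higher and 11.3% lower in that comparison, the shares to set beside each marker count here. Of 6 later B cell markers none passed. Among the other lists, 1 of 7 plasmacytoid dendritic cell markers (Irf7), 2 of 4 T cell markers (Il2ra and Notch1), 1 of 4 basophil and mast cell markers (Kit) and 1 of 3 stromal and endothelial markers (Pecam1) were higher, and 1 of 3 NK markers was lower (Nkg7). These lists are short, and a count such as 1 of 7 lies near the share of all genes. Among the T cell markers, Cd3d, Cd3e, Cd4, Cd8a, Cd5, Bcl11b and Gata3 were not above background in any pro-B group. Cd3g, Cd247, Ptcra and Thy1 were each above background on at least 1 pro-B array.

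Genes around the 10 were read from lists of their families and partners. With Bcl2, 7 of 14 class II presentation genes were higher by label and 0 lower, with a list median of 1.47 against 0.0366 over all genes. In this comparison 11.7% of all genes were higher and 11.3% lower, the shares to set beside each list that follows. The 7 higher genes include H2-Eb1 (2.91 ± 0.49, adjusted p = 0.00151), a class II chain, H2-DMb1 (1.61 ± 0.25, adjusted p = 0.000785), part of the class II peptide loading machinery, and Marchf1 (2.27 ± 0.29, adjusted p = 0.000203). Marchf1 encodes the ligase MARCH1, which is known to remove CD86 and class II molecules from the surface. In the Bcl2 control 6 of these 14 genes were lower than in the control, with a median of -1.21, against 3.29% lower and a median of 0.0323 over all genes, the comparison in which Cd86 was lower too.

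The TNF family list held 6 of 10 genes higher and 0 lower by label with Bcl2, against 11.7% and 11.3% of all genes, with a median of 0.865. Fas, the death receptor that CD40 signals are known to raise on B cells, differed by 2.70 ± 0.29 (adjusted p = 5.79e-05). Ltb, a lymphotoxin chain, differed by 2.10 ± 0.31 (adjusted p = 0.00058) and Tnfsf8, the ligand of CD30, by 1.59 ± 0.26 (adjusted p = 0.00127). In the list of CD40 and BAFF receptor signalling 4 of 16 genes were higher and 0 lower, beside the same shares of all genes, with a median of 0.546. The adaptor Traf1, not above background in the Bcl2 control, was at least 2.74-fold higher (adjusted p = 2.22e-05), the NF-kB subunit Relb differed by 1.53 ± 0.26 (adjusted p = 0.0016) and the adaptor Traf5 by 2.26 ± 0.40 (adjusted p = 0.00197). Between the labelled deficient groups 10 of these 16 were higher with Bcl2 and 0 lower, against 20.3% higher and 17.5% lower over all genes.

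Among other B7-like ligands and receptors, 2 of 8 were higher by label with Bcl2 and 0 lower, with a median of 0.242. Vsir, whose product VISTA is an inhibitory B7 relative, differed by 2.12 ± 0.22 (adjusted p = 4.09e-05) and Btla, an inhibitory receptor of B cells, by 1.57 ± 0.35 (adjusted p = 0.0073), while Cd200 differed by 0.61 ± 0.25 and did not pass (adjusted p = 0.12). Of 6 T cell side partners 2 were higher, Tnfrsf18, which encodes GITR (2.05 ± 0.45, adjusted p = 0.00756), and the adhesion receptor Cd2 (1.26 ± 0.33, adjusted p = 0.0195). Cd27, the receptor of CD70, differed by -0.44 ± 0.16 and did not pass (adjusted p = 0.0706). Of 10 SLAM family and adhesion genes 2 were higher, the integrin chain Itgal (1.18 ± 0.18, adjusted p = 0.000869) and its ligand Icam1 (0.93 ± 0.26, adjusted p = 0.0251), with a median of 0.172. No gene of any of these 6 lists passed by label without Bcl2.

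**Figure D3:**
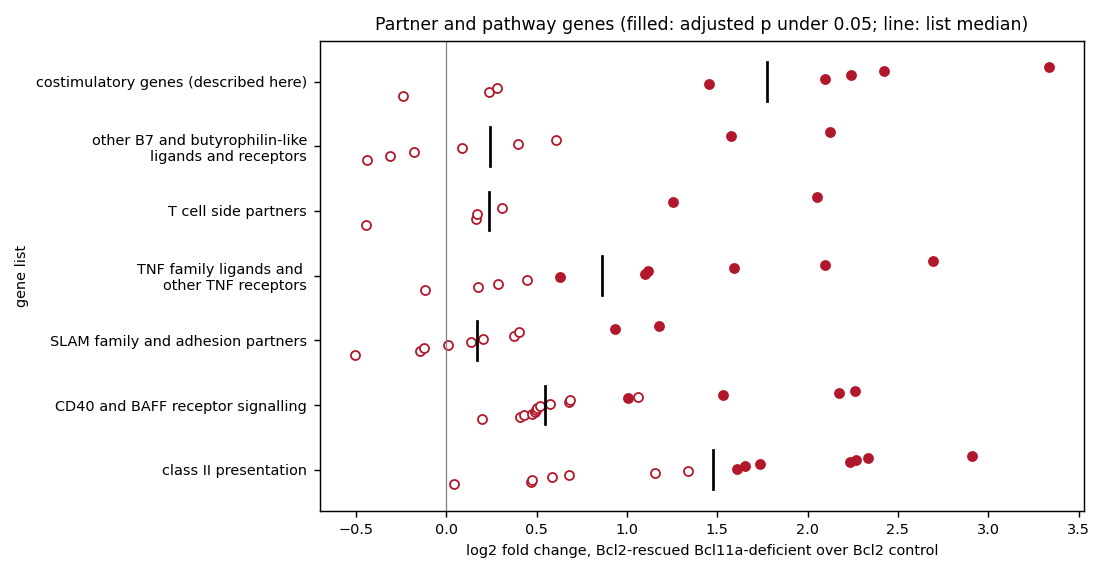
Log2 fold change between the Bcl2-rescued Bcl11a-deficient group and the Bcl2 control for the 8 genes described here (top row) and for 6 lists of related genes; each point is the brightest kept probe of 1 gene, filled points passed at an adjusted p under 0.05 and the vertical lines are list medians. The class II list has a median of 1.47 and the costimulatory genes 1.77, while the SLAM and adhesion list sits near 0 with a median of 0.172.

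Genes with the nearest pattern were found by the root mean square difference of log2 values over the 12 pro-B arrays, each gene centred on its own mean, among 9686 other genes. This is a description that a shared contrast between the groups can bring about. Cd86 and Cd83 were each other's nearest gene, at 0.272, and the next was Marchf1 for Cd86 (0.277) and Slfn2 for Cd83 (0.293). Cd274 had the closest neighbours, Slc37a2 (0.111) and Ifnlr1 (0.151). Cd80 has no such neighbours to give, since its probe was at background on 9 of the 12 arrays. Cd40 was nearest to Serpina3f (0.401) and Klf6 (0.421), and Tnfrsf13c to Ass1 (0.237) and 9430038I01Rik (0.238). Between members the difference was 0.785 for Cd86 and Cd40 and 0.603 for Cd274 and Cd40.

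DN3 cells, which are T lineage cells, were compared with control pro-B cells. Of the B cell receptors in the set, Cd40 and Tnfrsf13c were at background in DN3 cells, and Tnfrsf13b was lower but above background. Of the 8 genes 5 were lower (Cd86, Cd83, Cd40, Tnfrsf13c and Tnfrsf13b) and 1 passed as higher, against 23.7% lower and 20.4% higher over 10290 named genes. The median over the 8 genes was -0.982, against -0.0739 over all. The gene that passed as higher was Cd80, which was above background on no DN3 array and no control array, so no difference in its RNA was measured.

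Tnfrsf13c had the highest bound of the 10 genes in this comparison. It read 5.11, 4.81 and 5.10 in DN3 cells, against 10.72, 11.26 and 10.84 in the control (log2, 15 arrays normalised together), and was at least 36.2-fold lower in DN3 cells (adjusted p = 5.48e-11). Cd40 read 5.60, 5.30 and 5.33 in DN3 cells against 7.91, 9.04 and 10.00 in the control, at least 9.30-fold lower in DN3 cells (adjusted p = 5.45e-05). Neither receptor gene was above background on a DN3 array. Cd83 was not either, and was at least 1.48-fold lower (adjusted p = 0.000294), a bound kept small by its low level in the control.

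Tnfrsf13b was the exception among the B cell receptors, since TACI RNA remained well above background in DN3 cells on the brighter of its 2 probes. Its brighter probe read 10.36, 10.23 and 10.58 in DN3 cells against 11.40, 11.52 and 11.27 in the control, a difference of -1.01 ± 0.17 (adjusted p = 0.000253). The dimmer probe read 6.18, 6.27 and 7.08 in DN3 cells, with detection p of 0.0139, 0.0107 and 0. It differed by -1.24 ± 0.35 (adjusted p = 0.0108), with arrays that overlapped, and 3 of 26 alternatives removed that call. Cd274 was expressed in both, at 8.37, 8.67 and 9.18 in DN3 cells and 8.95, 9.04 and 10.40 in the control, and did not pass (-0.72 ± 0.32, adjusted p = 0.0806). Cd86 was above background on 1 DN3 array and differed by -0.96 ± 0.22 (adjusted p = 0.0029), and Icosl by -0.08 ± 0.20 (adjusted p = 0.754).

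**Figure D4:**
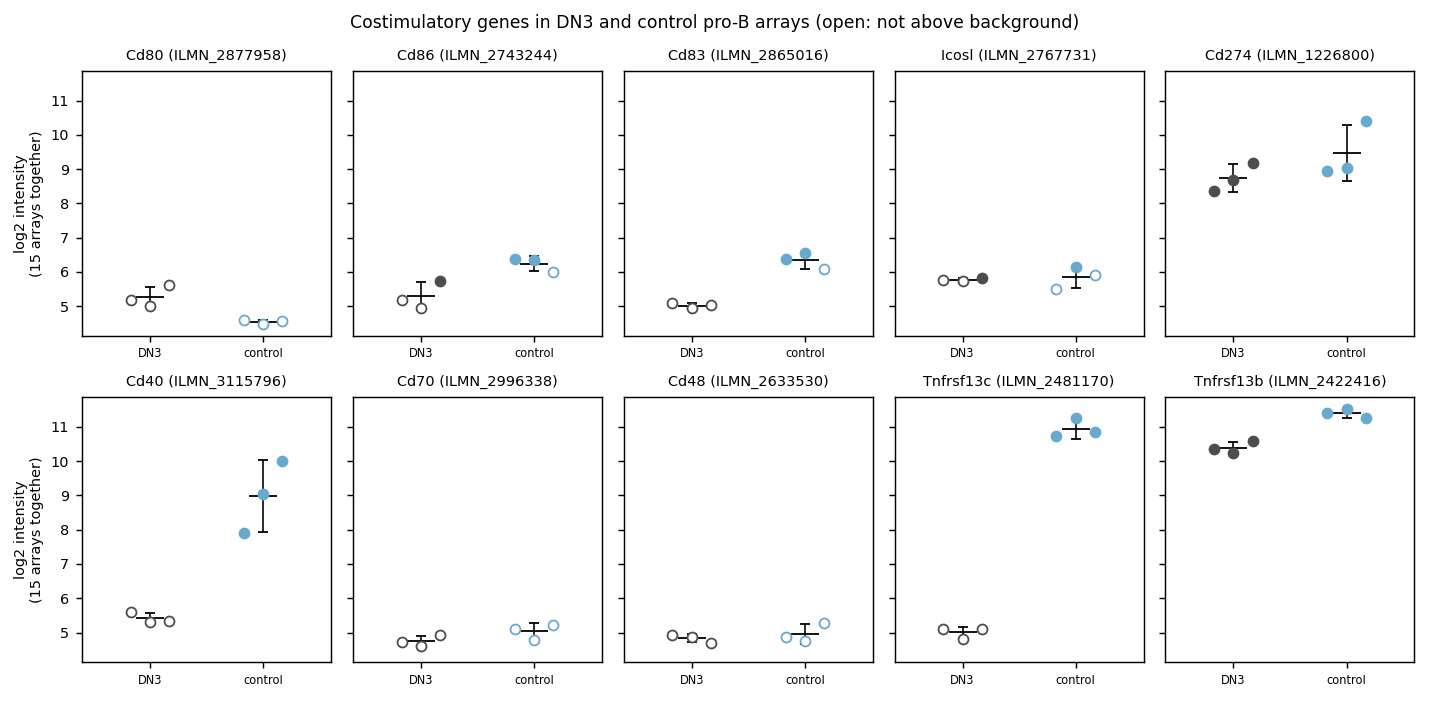
Log2 intensity of the brightest probe of each gene on the DN3 arrays (left in each panel) and the control pro-B arrays (right), after normalisation of all 15 arrays together; lines are the mean and SD of 3 arrays and open points were not above background. Tnfrsf13c separates the groups by the widest gap, with DN3 arrays at 4.81 to 5.11, while Cd274 overlaps and Tnfrsf13b is filled in both.

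On the T cell side of the same contacts, 8 of 10 kept partner genes were higher in DN3 cells and 0 lower, against 20.4% higher and 23.7% lower over all genes, with a list median of 2.47 that includes genes known only as bounds. Over the pro-B arrays 6 partner genes were kept, so the rest met the filter only with the DN3 arrays. The count therefore supports nothing by itself. Cd27 was at least 221-fold higher (adjusted p = 5.7e-14), Cd28, the receptor of CD80 and CD86, at least 12.9-fold higher (adjusted p = 1.96e-10), and Ctla4 differed by 5.07 ± 0.24 (adjusted p = 8.32e-10). Of 14 class II genes 12 were lower and 2 higher (H2-Oa and H2-DMa). The lower ones include Lgmn (-2.66 ± 0.21, adjusted p = 1.6e-07), a protease of the presentation pathway, H2-Ob (-2.48 ± 0.28, adjusted p = 8.4e-06), and Marchf1, at least 2.44-fold lower (adjusted p = 1.5e-05). The signalling list had 4 of 17 genes higher and 0 lower: Traf1 at least 5.81-fold (adjusted p = 2.95e-07), Tnfaip3, which restrains NF-kB, at least 4.06-fold (adjusted p = 1.11e-05), Nfkb2 at least 1.21-fold (adjusted p = 0.000113) and Nfkbia by 1.06 ± 0.33 (adjusted p = 0.0198).

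The remaining lists were mixed in DN3 cells, beside 20.4% of all genes higher and 23.7% lower, and some of their counts lie near those shares. Each of them, and the signalling list, had more kept genes over the 15 arrays than over the 12 pro-B arrays. The added genes met the filter only with the DN3 arrays. In the SLAM and adhesion list 5 of 12 genes were higher and 3 lower. The list was led by Cd6, an adhesion molecule of T cells (at least 36.1-fold, adjusted p = 3.37e-12), Slamf1 (at least 5.82-fold, adjusted p = 1.01e-08) and Itgal (2.67 ± 0.18, adjusted p = 4.43e-08). In the TNF family list 6 of 11 were higher and 2 lower, led by Fas (4.44 ± 0.26, adjusted p = 7.64e-09), Tnfsf14 (at least 2.95-fold, adjusted p = 3.56e-07) and Lta (-2.77 ± 0.25, adjusted p = 7.53e-07). Of 9 B7-like genes 4 were higher and 2 lower, led by Cd200 (at least 2.62-fold, adjusted p = 2.3e-06), Sirpa (-3.81 ± 0.42, adjusted p = 5.26e-06) and Nectin2 (at least 1.87-fold, adjusted p = 4.22e-05). Tnfsf8 passed as higher with both groups at background.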

How the data were processed

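RNA was labelled with the Ambion MessageAmp kit, per the labels' protocols. The sources used here name no scanner software. For each probe and array the authors deposited a linear intensity and, as a fraction, a detection value. Judged by the values, the pro-B intensities have a background removed (33.2% to 39.9% lie below 0) and the DN3 intensities do not (lowest value 39.6). The deposited series matrix holds a score that is the intensity centred and scaled per probe (correlation 1), so it served as an alternative only. Identical signals in any pair of arrays reached 0.703%.

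The neqc function of limma 3.58.1 (R 4.3.3) was run with 1 minus the detection value as detection p, an offset of 16, quantile normalisation and log2. Normalisation covered the 12 pro-B arrays for their comparisons and all 15 for DN3. Probes with a detection p under 0.05 on at least 3 arrays were kept, 17719 over the pro-B arrays and 18843 over all. The probe table names 1 gene for 34874 probes, several for 18, and does not list 10371. Group means were fitted over all kept probes, and p-values were adjusted by Benjamini-Hochberg within each of 6 comparisons, threshold 0.05. A gene is represented by its brightest kept probe. Where a group was below background on every array, the fold is a bound. On each dim array the probe was given the lowest signal of any detected probe, unless its own was higher, and the mean of these was set against the brighter group's mean, which yields the "at least" folds. With 3 arrays a group an exact permutation p is never under 0.1, so none was used. P-values rest on the spread between arrays, which the series text ties to 3 batches of cultured cells. Precision is limited by the small number of arrays.

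The 10 genes, the gene and marker lists and the tests were chosen with earlier results of these data known. The rule names the 10 genes with all probes, Bcl11a as the label check, up to 3 genes per list with the smallest p by label with Bcl2 (and, where they pass, without Bcl2 and in DN3), and the 2 genes nearest in pattern. The members of a count of calls and the markers of other cells were named in addition, after their values were seen. Lists from general knowledge cover other B7-like genes, T cell side partners, TNF family genes, SLAM and adhesion genes, CD40 and BAFF receptor signalling and class II presentation. Marker lists cover early and later B cells, conventional and plasmacytoid dendritic cells, monocytes, macrophages and neutrophils, T cells, NK cells, basophils and mast cells, and stroma.

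Same-numbered arrays within each Bcl2 background deviated together (correlations of 0.329 to 0.348 without Bcl2 and 0.249 to 0.396 with it). Each of these pairs also shared a slide, so pairing and slide cannot be told apart. Across backgrounds the correlations for replicates 1, 2 and 3 were 0.283, 0.00965 and 0.314 between the controls. Between the labelled deficient groups they were 0.0363, -0.125 and 0.106. Only the replicate 2 arrays lay on different slides across backgrounds. Alternatives changed the background correction, normalisation, offset, filter, slide and replicate blocks, array weights, arrays fitted, probe choice and table, and left out each array. The fit was tested on simulated data.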

Additional observations from a re-analysis of the deposited data

Results flagged for a closer look

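For 3 genes the effect of the Bcl11a label differed between cells with and without Bcl2, by the interaction term of the fit. The difference between the label effects was 3.02 ± 0.35 log2 units for Cd80 (limma adjusted p = 0.000328), 1.93 ± 0.28 for Cd86 (adjusted p = 0.00154) and 1.86 ± 0.35 for Cd83 (adjusted p = 0.00753). In each case the label effect was larger with Bcl2. The Cd80 value rests on 3 groups that were not above background. Dixon's rule for a sample far from its group was not applied, because every group holds 3 arrays.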

How the results depend on the processing

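Calls by label with Bcl2 were the steadiest: Cd86, Cd83 and Cd274 passed in every alternative run, and Cd40 in all but slide 1 alone. Cd80 passed in all 25 runs that kept its probe. The filter keeps that probe only through the bright Bcl2-rescued arrays, so this tally is no measure of steadiness. Cd80 was not kept, and so not tested, without any 1 Bcl2-rescued array or with a filter of 6 arrays. Leaving out each array in turn gave 4 to 5 called genes by label with Bcl2, 0 to 0 without Bcl2, 2 to 5 for the interaction, 0 to 3 for Bcl2 in control cells, 4 to 6 for Bcl2 in labelled deficient cells and 5 to 6 in DN3 cells. The 5 for the interaction came without control replicate 1 (Cd274 and Cd40 added), and the 2 without each Bcl2-rescued array (no Cd80). By label without Bcl2, slide 2 alone gave 1 (Cd274, lower), from 1 array a group. For Bcl2 in control cells (3 as fitted) the count was 1 with a neqc offset of 50, 1 with no filter, 0 with median scaling, 0 within slide 1, 1 within slide 2, 0 with the 2 groups alone and 0 with the series matrix scores. The series matrix gave 0 for the interaction and 1 for DN3, and in DN3 it turned Cd86 ILMN_1217041 (0.177) and Cd40 ILMN_2496288 (2.23), on its own scale. The cause of these changes was not tested. With the replicate block within each Bcl2 background, 5 genes were called by label with Bcl2, 0 without and 4 for the interaction, where Cd40 was added, and the Bcl11a call without Bcl2 was lost (adjusted p = 0.082). On the brightest probes of the 10 genes the block changed no other call. Median scaling moved the median of all genes by 0.542 by label without Bcl2, 0.47 for Bcl2 in control cells, -0.429 for the interaction and -0.66 in DN3, and cyclic loess by 0.109 in DN3, where the Cd86 and Cd83 calls were then lost. Values near background limit Icosl, Cd48, Cd70 and the dim probes.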
